A study of Mus musculus with 6 samples.

Results

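The 34 heart muscle genes described here encode the contractile proteins, calcium-handling proteins, secreted peptides and transcription factors of cardiomyocytes. They were chosen by gene symbol, with earlier results of these data known. All 34 had a feature on the arrays, among 23279 genes tested. Expression was measured in whole fetal livers of mouse embryos at embryonic day 11.5, with 3 arrays of livers labelled Stab2Cre;Gata4 knockout and 3 arrays of control livers whose titles read Stab2Cre;Gata4 heterozygous. Both groups came from 1 cross, in which the parents were Stab2-Cretg/wt;Gata4fl/wt and Gata4fl/fl and the floxed allele came from the line B6;129-Gata4tm1.1Sad/J. By their titles both groups therefore carried the Stab2-Cre transgene, and the controls had lost at most a single Gata4 allele in the cells that make Cre. The Stab2 gene, which encodes an endocytic receptor, is active in the endothelium of liver sinusoids and not in heart muscle, and the floxed allele is cut only where this Cre acts. The labels call the replicates biological, but the sources used here do not give the number of embryos behind an array.

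Heart muscle contracts when thick filaments of myosin pull on thin filaments of actin, and troponin on the thin filament switches this on when calcium rises. Titin and the Z-disc proteins hold the filaments in register, and the sarcoplasmic reticulum stores and releases the calcium. In the mouse embryo the heart beats well before day 11.5 and lies just in front of the liver, with the septum transversum between them and the sinus venosus receiving the liver's veins. Hepatocytes, blood cells and sinusoidal endothelium do not build sarcomeres, although some transcription factors of the heart are also made by mesenchyme and endothelium of other organs.

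Some facts of the arrays bear on every value below. Gata4 read 10.38, 10.26 and 10.64 in livers labelled knockout, against 9.90, 9.96 and 9.87 in control livers (log2 value), so it was higher in the livers labelled knockout (log2 fold change 0.51, SE 0.12, limma adjusted p = 0.0409). It no longer passed when control replicate 2 was left out (adjusted p = 0.101). Mesenchyme of the liver also makes Gata4, and where the probes lie relative to the floxed exons is unknown here. The feature therefore cannot check the labels, on which each direction below rests. Stab2 read 7.14, 6.32 and 6.99 in livers labelled knockout, against 8.10, 8.22 and 8.02 in control livers. Sex was not balanced: Xist, made by female cells, read 10.71, 10.34 and 10.31 in livers labelled knockout, against 3.58, 10.19 and 3.96 in control livers. Control replicate 2 was thus the only control array with high Xist, and it is also the array that stands apart for the heart muscle genes, as described next. The authors' quantile normalisation gave each array the same distribution of values, with a median of 5.43.

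The heart muscle genes varied mainly between single arrays, and for none did the group difference pass the test. Labelled knockout replicate 3 had the highest value of the 6 arrays for 7 of 34 genes, and control replicate 2 for 23 of 34, while over all genes tested those arrays were highest for 15.5% and 16.6%. For 21 of 34 genes, labelled knockout replicate 3 and control replicate 2 were the 2 highest arrays, as was so for 5.11% of all genes. Taken per array, the median over the 34 genes of the log2 value minus the gene's median of the 6 arrays was -0.17, -0.19 and 0.41 in labelled knockout replicates 1, 2 and 3, against 0.03, 0.73 and -0.17 in control replicates 1, 2 and 3. An array of each group was therefore high, the control one more so. Control replicate 1 was intermediate, with a mean log2 value over the 34 genes of 5.62. That mean was 5.29, 5.29 and 6.15 in labelled knockout replicates 1, 2 and 3, and 6.59 and 5.25 in control replicates 2 and 3. In bulk tissue, more cells of a type and more RNA per cell cannot be told apart. Whether heart tissue was taken along with the liver in dissection was not tested.

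**Figure D1:**
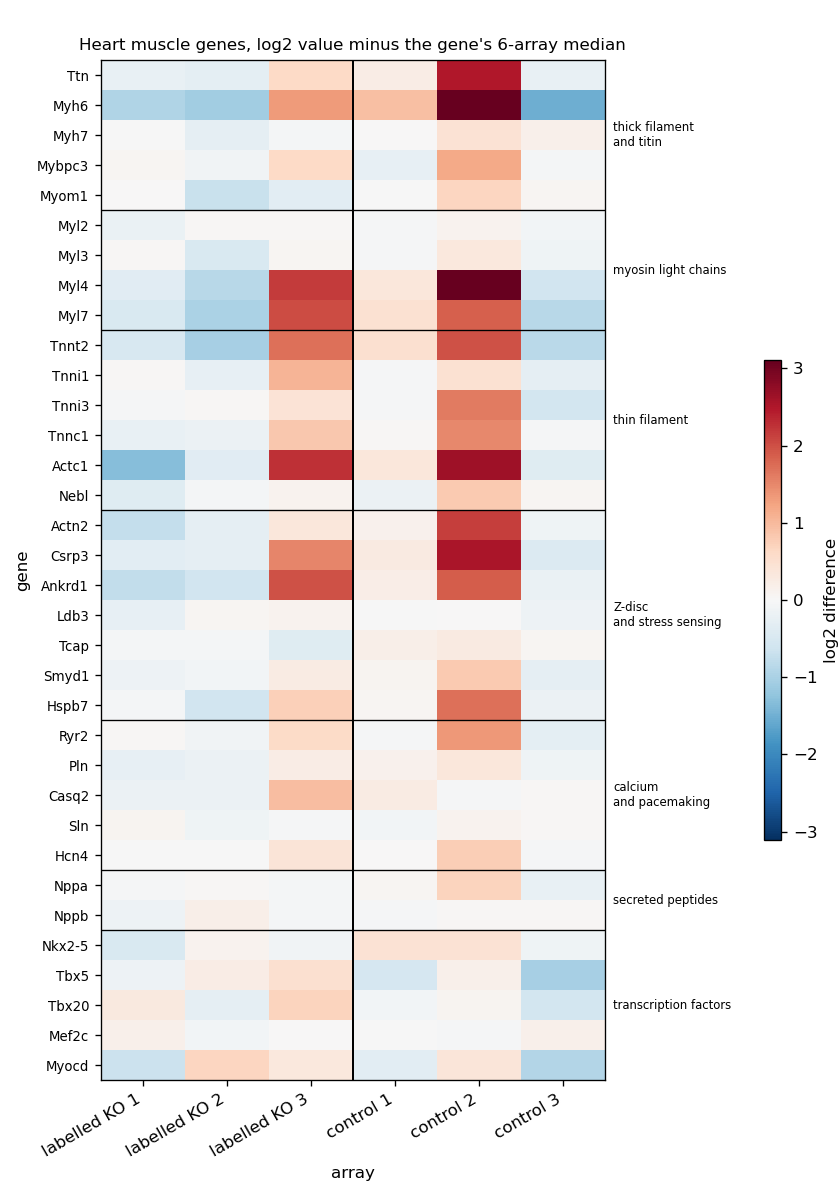
Each row is 1 of the 34 heart muscle genes, grouped by role, and each column 1 array, with livers labelled knockout (KO) left of control livers. Colour gives the log2 value minus the gene's median over the 6 arrays. Labelled knockout replicate 3 and control replicate 2 are red for most filament and Z-disc genes, with a median over all 34 genes of 0.41 and 0.73.

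Few genes of the genome stood out in either array, and heart muscle genes were a large share of them. In labelled knockout replicate 3, 47 of all genes tested (0.202%) read at least 2-fold above their 6-array median, and 8 of these 47 belonged to the 34 heart muscle genes: Myh6, Myl4, Myl7, Tnnt2, Tnni1, Actc1, Csrp3 and Ankrd1. In control replicate 2, 37 genes (0.159%) passed the same fold, and 14 of these 37 were among the 34: Ttn, Myh6, Mybpc3, Myl4, Myl7, Tnnt2, Tnni3, Tnnc1, Actc1, Actn2, Csrp3, Ankrd1, Hspb7 and Ryr2. Ranked by this excess, heart muscle genes made up 5 of the first 10 genes and 7 of the first 20 in labelled knockout replicate 3, against 9 and 13 in control replicate 2. None of the 34 read that far above its median in the other 4 arrays, where 41, 182, 33 and 74 genes did so in labelled knockout replicates 1 and 2 and control replicates 1 and 3.

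The thick filament and titin genes were all highest in control replicate 2, by very different amounts. Myh6, the alpha myosin heavy chain, which in the mid-gestation mouse heart is mainly atrial, read 4.33, 4.17 and 6.59 in livers labelled knockout, against 6.20, 8.38 and 3.75 in control livers (log2 value). Labelled knockout replicate 3 was 5.04-fold above the mean of the other livers labelled knockout, control replicate 2 was 10.6-fold above the mean of the other controls, and the groups overlapped. Ttn, the giant spring protein titin, read 4.37, 4.30 and 5.21 in livers labelled knockout, against 4.83, 7.08 and 4.36 in control livers. Here labelled knockout replicate 3 exceeded the mean of its group's others by only 1.83-fold, while control replicate 2 stood 5.60-fold above the mean of the other controls. Myh7, the beta myosin heavy chain, mainly ventricular at this stage, read 3.49, 3.23 and 3.44 in livers labelled knockout, against 3.50, 3.94 and 3.66 in control livers, so its highest array was only 1.29-fold above the mean of the other controls. The myosin-binding protein Mybpc3 and the M-band protein Myom1 were also highest in control replicate 2, at 5.91 and 6.51, against 4.49 to 4.67 and 5.82 to 5.89 in the other controls.

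For all 4 myosin light chains, labelled knockout replicate 3 and control replicate 2 were the 2 highest arrays, but the size of the excess differed. Myl4, the essential light chain of atria and of the early heart, read 5.25, 4.73 and 7.78 in livers labelled knockout, against 5.95, 8.69 and 4.999 in control livers. Myl7, the regulatory light chain of atria and of the early heart tube, read 6.22, 5.71 and 8.72 in livers labelled knockout, against 7.17, 8.55 and 5.84 in control livers. Both were high in labelled knockout replicate 3 and control replicate 2, by 6.91-fold and 9.28-fold (Myl4) and by 6.75-fold and 4.11-fold (Myl7) over the mean of the other arrays of the same group. The ventricular regulatory light chain Myl2 stayed between 4.84 and 5.15 in all 6 arrays, and the ventricular and slow-muscle essential light chain Myl3 between 2.90 and 3.70. A feature that reads near the bottom of the scale understates a fold change, so a flat value does not show that the transcript was absent.

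Troponin and actin genes of the thin filament followed the same arrays. Tnnt2, cardiac troponin T, which ties the complex to tropomyosin, read 6.61, 6.07 and 8.82 in livers labelled knockout, against 7.61, 9.08 and 6.26 in control livers. Actc1, cardiac alpha actin, read 7.33, 8.29 and 10.92 in livers labelled knockout, against 9.01, 11.28 and 8.26 in control livers. For both genes labelled knockout replicate 3 and control replicate 2 were the highest arrays of their groups, and the groups overlapped. Tnni3, the cardiac inhibitory subunit, read 6.40, 6.46 and 6.85 in livers labelled knockout, against 6.38, 8.05 and 5.85 in control livers, and so was high mainly in control replicate 2. Tnnc1, the calcium-binding subunit shared with slow skeletal muscle, read 6.34, 6.38 and 7.41 in livers labelled knockout, against 6.62, 8.08 and 6.53 in control livers. Tnni1, the slow skeletal inhibitory subunit that the embryonic heart uses before Tnni3, was instead highest in labelled knockout replicate 3, at 9.27 against 8.69 in control replicate 2, with the other 4 arrays between 7.94 and 8.25. The nebulin relative Nebl ranged from 3.93 to 5.12.

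**Figure D2:**
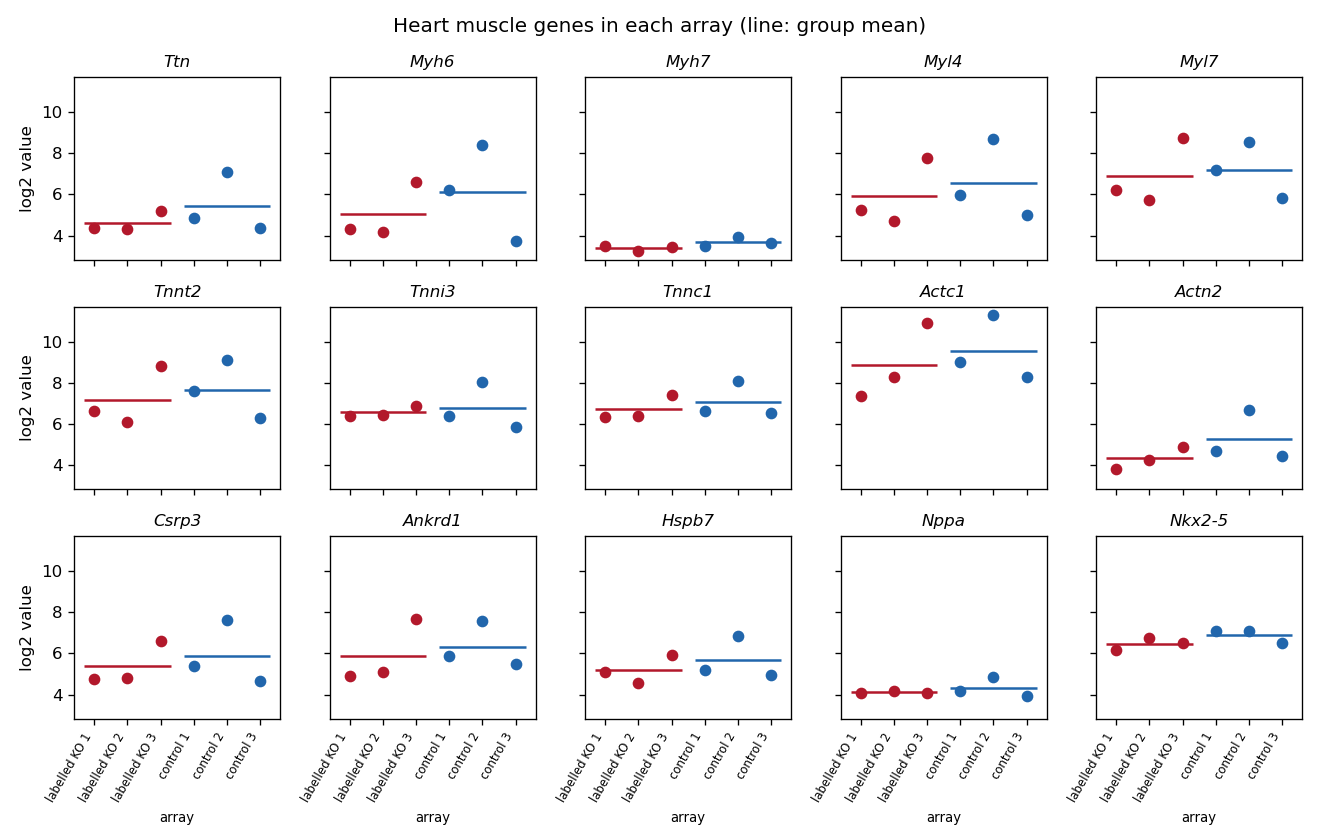
Log2 value (y axis) of 15 heart muscle genes in each array (x axis), as red points for livers labelled knockout (KO) and blue points for control livers, with a line at each group's mean. In Myh6, Myl4, Myl7, Tnnt2, Actc1, Csrp3 and Ankrd1 a single red point lies far above the rest of its group. The highest blue point of these genes is control replicate 2. Control replicate 1 lies between it and control replicate 3, as in Myh6 (6.20, between 8.38 and 3.75). Myh7, Nppa and Nkx2-5 span less than 1 log2 unit.

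Promoter sequences are shown for genes that were high in the same arrays (Actc1, Myl7, Myh6 and Myl4). Sequences are also shown for Myl3 and Nppa, whose ranges over the arrays were smaller (0.80 and 0.94) but above the median of all genes (0.43). They come from RefSeq on GRCm38.p6 and give the 150 bases before the annotated start site, 5′ to 3′, with capitals marking matches, on either strand, to the CArG box (the site of serum response factor) and to AGATAA or TGATAA, which GATA factors bind.
Actc1 (chr2:114052876-114053025, minus strand): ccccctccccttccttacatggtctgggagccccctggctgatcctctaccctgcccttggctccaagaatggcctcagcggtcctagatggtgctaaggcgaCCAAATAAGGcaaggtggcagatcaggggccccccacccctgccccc
Myl7 (chr11:5898783-5898932, minus strand): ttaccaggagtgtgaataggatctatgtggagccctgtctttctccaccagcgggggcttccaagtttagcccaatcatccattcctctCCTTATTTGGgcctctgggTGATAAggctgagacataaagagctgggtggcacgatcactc
Myh6 (chr14:54966608-54966757, minus strand): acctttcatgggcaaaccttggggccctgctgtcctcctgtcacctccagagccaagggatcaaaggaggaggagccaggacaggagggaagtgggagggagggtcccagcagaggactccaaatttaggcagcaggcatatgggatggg
Myl4 (chr11:104550513-104550662, plus strand): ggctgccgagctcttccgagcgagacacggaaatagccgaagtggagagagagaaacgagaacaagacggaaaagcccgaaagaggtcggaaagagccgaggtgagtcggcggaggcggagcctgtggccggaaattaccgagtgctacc
Myl3 (chr9:110763528-110763677, plus strand): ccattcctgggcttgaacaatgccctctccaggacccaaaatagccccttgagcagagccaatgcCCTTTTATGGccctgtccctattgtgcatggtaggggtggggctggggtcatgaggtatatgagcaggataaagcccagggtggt
Nppa (chr4:148000572-148000721, plus strand): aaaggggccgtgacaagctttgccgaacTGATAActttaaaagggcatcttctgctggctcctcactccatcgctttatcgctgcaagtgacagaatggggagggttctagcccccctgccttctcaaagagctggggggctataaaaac
The CArG match lies 47 to 38 bases before the start site in Actc1, 61 to 52 bases in Myl7 and 85 to 76 bases in Myl3. TGATAA lies 42 to 37 bases before the start site in Myl7 and 122 to 117 bases in Nppa, and the windows of Myh6 and Myl4 hold none of these matches.

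Of the 34 genes, 30 matched an entry of the promoter table by gene ID, with 41 windows in all, and these were set beside all 32851 windows of the same length. A CArG box was found in 6 of 41 windows (14.6%), against 0.916% of all windows, and belonged to Actc1, Ldb3, Myl3, Myl7 and Myom1. The 2 windows of Ldb3 overlap and hold the same CArG site. AGATAA was found in 5 of the 41 windows (12.2%) against 5.65% of all, and TGATAA in 5 (12.2%) against 4.45%. The MEF2 site was found in 1 window only, that of Mybpc3 (2.44% against 0.332%). CATTCC was found in 7 windows (17.1% against 7.59%) and TATAAA in 5 (12.2% against 7.57%). Both strands were searched, and CArG and MEF2 matches may overlap other motifs. Genes with a CArG box included ones with large excesses in these arrays (Actc1, Myl7) and ones with smaller differences between arrays (Ldb3 and Myl3). The 2 highest arrays of Myl3 were nonetheless the same. These matches describe the sequences only.

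Most of the Z-disc and stress-sensing genes were high in the same arrays, to different degrees. Actn2, the alpha-actinin that cross-links actin at the Z-disc, read 3.81, 4.27 and 4.90 in livers labelled knockout, against 4.67, 6.69 and 4.42 in control livers. Csrp3, the muscle LIM protein, read 4.77, 4.83 and 6.62 in livers labelled knockout, against 5.38, 7.64 and 4.68 in control livers. Ankrd1, a titin-binding ankyrin protein that responds to stretch, read 4.92, 5.08 and 7.66 in livers labelled knockout, against 5.88, 7.56 and 5.47 in control livers. Actn2 was thus high chiefly in control replicate 2, Csrp3 less in labelled knockout replicate 3 than in that array, and Ankrd1 about equally in both. Hspb7, a small heat shock protein of the sarcomere, read 5.11, 4.56 and 5.90 in livers labelled knockout, against 5.22, 6.87 and 4.98 in control livers. The muscle methyltransferase Smyd1 ranged from 4.91 to 5.999, with its maximum in control replicate 2, while the Z-disc proteins Ldb3 (4.70 to 5.05) and Tcap (5.06 to 5.72) varied little. Of the 6 arrays, Tcap was lowest in labelled knockout replicate 3 and highest in control replicate 2.

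Genes of calcium handling and pacemaking moved less. Ryr2, the calcium release channel of the sarcoplasmic reticulum, read 4.58, 4.43 and 5.14 in livers labelled knockout, against 4.52, 5.90 and 4.25 in control livers, and control replicate 2 stood 2.85-fold above the mean of the other controls. Casq2, which stores calcium in the reticulum, read 4.53, 4.53 and 5.69 in livers labelled knockout, against 4.96, 4.69 and 4.75 in control livers. It was the only 1 of the 34 genes that reached its maximum in labelled knockout replicate 3 while control replicate 2 lay below the mean of the other controls. The pacemaker channel Hcn4 ranged from 3.91 to 4.72, and the calcium pump inhibitors Pln and Sln from 3.62 to 4.24 and from 3.20 to 3.46. Of the secreted natriuretic peptides, Nppa read 4.10, 4.20 and 4.10 in livers labelled knockout, against 4.20, 4.85 and 3.91 in control livers, and Nppb stayed between 3.85 and 4.20 in all 6 arrays. Nppa, although abundant in embryonic atria, was therefore 1.74-fold above the mean of the other controls in the array where Myh6 was 10.6-fold above it. Nppa read low on the scale in all 6 arrays, where a feature understates a fold change, so these folds cannot be compared directly.

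The transcription factors shared the pattern of the sarcomere genes only in part. Labelled knockout replicate 3 was above both other livers labelled knockout for 2 of 5 factors, by 1.38-fold for Tbx5 and 1.62-fold for Tbx20 over their mean. Control replicate 2 was above both other controls for 3 of 5, by 1.91-fold for Tbx5, 1.33-fold for Tbx20 and 1.99-fold for Myocd. Nkx2-5, an early cardiac homeobox factor also made by spleen and stomach mesenchyme, read 6.15, 6.74 and 6.50 in livers labelled knockout, against 7.07, 7.07 and 6.50 in control livers. Mef2c, which is also made in endothelium, stayed between 8.92 and 9.17 in all 6 arrays. Control replicate 2 tied with control replicate 1 as the highest array for Nkx2-5 and was highest for none of the other 4 factors. The T-box factor Tbx5 read 7.83, 8.22 and 8.49 in livers labelled knockout, against 7.46, 8.15 and 6.96 in control livers, and Tbx20 read 8.87, 8.31 and 9.29 against 8.49, 8.67 and 8.02. Labelled knockout replicate 3 was the highest array for both. Myocd, the coactivator of serum response factor in cardiac and smooth muscle, was highest in labelled knockout replicate 2, at 6.06, and lowest in control replicate 3, at 4.49. Tbx5, Tbx20 and Mef2c thus read well above the bottom of the scale in every array. So did some sarcomere genes, such as Actc1 and Tnni1 (lowest values 7.33 and 7.94).

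The 2 high arrays did not have the same profile. The log2 value of labelled knockout replicate 3 minus that of control replicate 2 was -1.87 for Ttn, -1.79 for Myh6, -1.79 for Actn2 and -1.20 for Tnni3, but 0.10 for Ankrd1, 0.17 for Myl7, 0.58 for Tnni1 and 1.00 for Casq2. Titin, alpha myosin and alpha-actinin thus read far lower in labelled knockout replicate 3, whereas the atrial regulatory light chain and Ankrd1 were about level. Each value compares 1 array with 1 other and has no replicate check.

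None of the 34 genes passed the test between livers labelled knockout and control livers. With limma on all 6 arrays and Benjamini-Hochberg adjustment over all genes, 0 of 34 were higher and 0 were lower, whereas 3.59% of all genes tested were higher and 2.77% lower, 6.36% together. The smallest adjusted p was 0.133, that of Tcap (log2 fold change -0.34, SE 0.12). At an unadjusted p of 0.05, 3 of 34 passed (Myh7, Myom1 and Tcap), against 22.5% of all genes. The groups did not overlap for 2 of 34 genes, Myh7 and Tcap, as was so for 27.3% of all genes. The log2 fold change was below 0 for 28 of 34 genes, against 51.7% of all genes, with a median of -0.20 over the 34 and -0.01 over all genes. A missed threshold does not show equal levels, and the intervals were wide for the genes that varied most. That of Myh6 ran from -3.59 to 1.44 around -1.07 (SE 1.09, adjusted p = 0.651), that of Actc1 from -2.96 to 1.62 around -0.67 (SE 0.99, adjusted p = 0.774) and that of Ttn from -2.25 to 0.66 around -0.80 (SE 0.63, adjusted p = 0.537). The median residual SD within groups was 0.48 for the 34 genes and 0.14 for all genes.

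Without control replicate 2 most differences turned sign. The log2 fold change was then below 0 for 10 of 34 genes, against 51.3% of all genes, and its median over the 34 was 0.08. For 18 of 34 genes the sign differed from that with all 6 arrays, as it did for 9.82% of all genes. Myh6 changed to 0.06 (SE 0.89), Ttn to 0.03 (SE 0.29), Actc1 to 0.21 (SE 0.93), Tnnt2 to 0.23 (SE 0.79, from -0.48 with all arrays) and Csrp3 to 0.38 (SE 0.55, from -0.49). Adjusted p-values of these 5 genes were between 0.804 and 0.983 (limma). Again 0 of 34 genes passed, while 1.58% of all genes did, and at an unadjusted p of 0.05 only Tbx5 passed, against 18.5% of all genes. Tbx5 had the smallest adjusted p, 0.0851, with a log2 fold change of 0.96 (SE 0.23), against 0.65 (SE 0.29, adjusted p = 0.230) with all arrays. The groups did not overlap for 4 of 34 genes (Myh7, Tnni3, Tcap and Tbx5), against 35.9% of all genes.

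**Figure D3:**
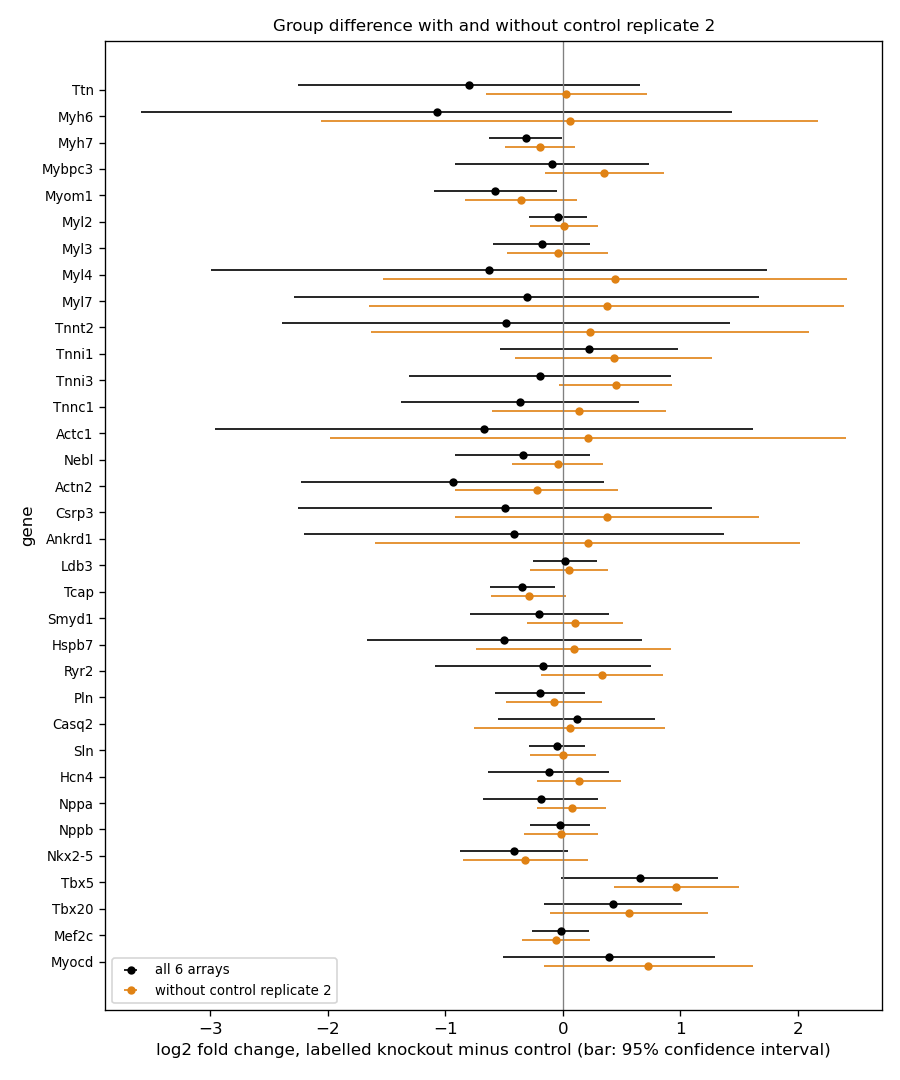
Log2 fold change (x axis, labelled knockout minus control) of each of the 34 genes with its 95% confidence interval from limma, from all 6 arrays (black) and without control replicate 2 (orange). For most filament and Z-disc genes the black point lies left of 0 and the orange one right of it, as for Myh6 (-1.07 and 0.06), and 18 of 34 points change side.

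Control replicate 2 alone gave the opposite picture, because it is the array where these genes were high. The mean of the livers labelled knockout minus control replicate 2 had a median of -0.76 over the 34 genes, with -3.34 for Myh6, -2.77 for Myl4 and -2.46 for Ttn. All livers labelled knockout and this control had high Xist, so a fit with a sex term gives those same differences and again called 0 of the 34 genes. Within that set of 4 high-Xist arrays, the median over the 34 genes of the excess over the 6-array median was -0.17, -0.19 and 0.41 in the livers labelled knockout. It was 0.73 in control replicate 2. Among the controls, sex cannot be told apart from this single array, and a part of sex in these values was not tested. When labelled knockout replicate 3 was left out along with control replicate 2, a choice made after seeing these values, the median over the 34 genes was -0.17 and 0 of 34 passed (smallest adjusted p 0.176). Labelled knockout replicates 1 and 2 minus control replicates 1 and 3 then gave -0.72 for Myh6, -0.83 for Actc1 and 0.81 for Tbx5.

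A further list of heart muscle genes held 50 measured genes. Labelled knockout replicate 3 was highest for 18 of 50 and control replicate 2 for 21 of 50, against 15.5% and 16.6% of all genes. These were the 2 highest arrays for 17 of 50, against 5.11% of all genes. Bves, a membrane protein of striated muscle, read 5.03, 5.17 and 6.42 in livers labelled knockout, against 5.06, 6.43 and 5.22 in control livers. Tecrl, a reductase-like protein of the cardiac reticulum, read 4.35, 3.70 and 5.66 in livers labelled knockout, against 3.91, 4.88 and 3.72 in control livers. Cox6a2, the muscle form of a respiratory chain subunit, was highest in control replicate 2, at 6.33, with the other 5 arrays between 4.94 and 5.59. These 3 repeated the pattern of the sarcomere genes in part, while Hand1 was highest in labelled knockout replicate 1 (7.20). Popdc2 read 7.16, 6.28 and 7.65 in livers labelled knockout, against 7.07, 7.80 and 7.74 in control livers, so control replicate 3 was nearly as high as control replicate 2. Of the 50, 2 passed as higher and 1 as lower (median log2 fold change -0.00), against 3.59% and 2.77% of all genes. The gap junction gene Gja1, also made by mesenchyme, rose by 1.14 (SE 0.10, limma adjusted p = 0.00591) and still passed without control replicate 2 (1.19, adjusted p = 0.0150). N-cadherin Cdh2, also made by hepatoblasts and mesenchyme, rose by 0.57 (SE 0.10, adjusted p = 0.0220), and the myosin kinase Mylk3 fell by 0.89 (SE 0.19, adjusted p = 0.0341), but without control replicate 2 neither passed (adjusted p = 0.0570 and 0.0713). Cdh2 also failed without labelled knockout replicate 3 (adjusted p = 0.0741) or control replicate 3 (0.0829), and Mylk3 passed only without labelled knockout replicate 2 (0.0397) among the 6 fits that left out 1 array. Gja1 passed in all of these.

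Over all genes tested, labelled knockout replicate 3 was highest for 15.5% and control replicate 2 for 16.6%, and 3.59% passed as higher and 2.77% as lower. With these shares in view, markers of other muscle and of neighbouring tissues were set beside the heart muscle genes. Smooth muscle genes moved with them in part: labelled knockout replicate 3 was highest for 2 of 12 and control replicate 2 for 6 of 12, with 0 of 12 past the test (Tagln -0.44, adjusted p = 0.128; Myh11 -0.35, adjusted p = 0.171). Skeletal muscle genes did not: labelled knockout replicate 3 was highest for 4 of 17 and control replicate 2 for 2 of 17, their mean log2 value per array was 4.89, 4.97 and 5.05 in livers labelled knockout, against 5.04, 4.94 and 5.04 in control livers, and 0 of 17 passed (Tnni2 -0.40, adjusted p = 0.178; Actn3 0.26, adjusted p = 0.220). Genes of epicardium and mesothelium were highest in labelled knockout replicate 3 for 7 of 12 and in control replicate 2 for 0 of 12, and 2 rose (Bnc1 0.79, adjusted p = 0.0113; Krt19 0.52, adjusted p = 0.0387), of which Bnc1 also passed without control replicate 2 (adjusted p = 0.0375). Of 10 genes of endocardium and cushion, 2 were highest in control replicate 2, 2 rose, Cthrc1 among them (0.65, adjusted p = 0.0279), and Nfatc1 fell by 0.76 (adjusted p = 0.0155), but 0 of 10 passed without control replicate 2. Of 8 genes of the second heart field and sinus venosus, Fgf10 rose (0.96, adjusted p = 0.0222, and 0.0467 without control replicate 2), Bmp10 did not pass (0.59, adjusted p = 0.139), and 1, Tbx1, was highest in control replicate 2 (5.58). Shox2, a factor of the sinus venosus picked out, like Tbx1, after values were seen, read 4.90, 4.32 and 6.04 in livers labelled knockout, against 5.05, 6.02 and 4.61 in control livers.

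**Figure D4:**
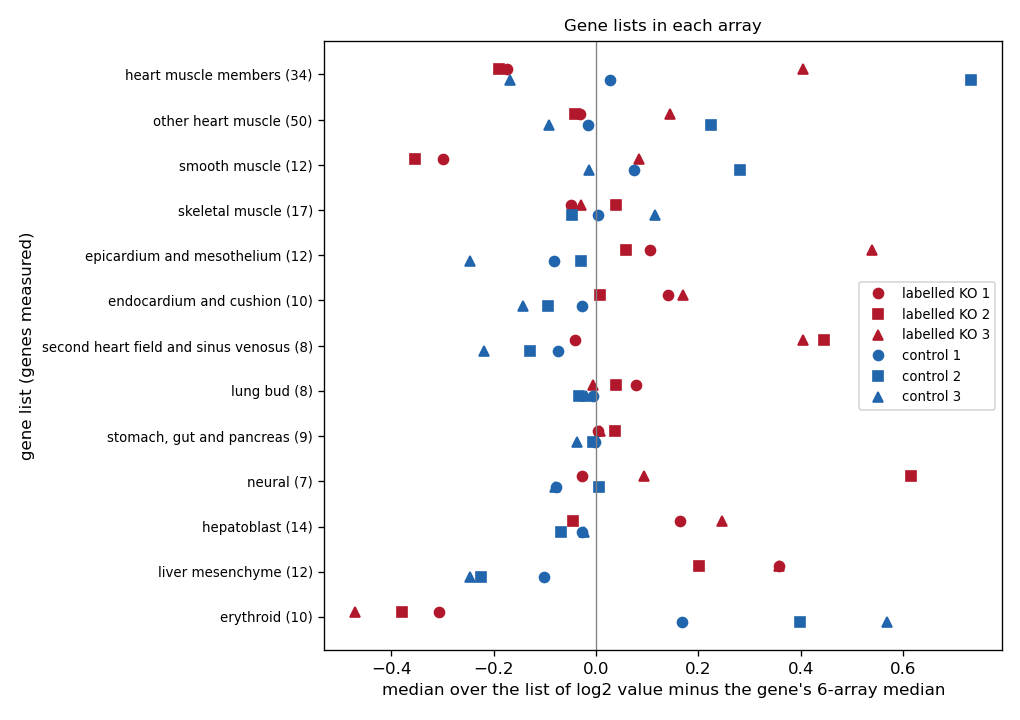
Median over each gene list of the log2 value minus the gene's 6-array median (x axis), for each array, with livers labelled knockout (KO) in red drawn above control livers in blue, and symbols for replicates 1 (circle), 2 (square) and 3 (triangle). The heart muscle list sets labelled knockout replicate 3 (0.41) and control replicate 2 (0.73) apart, whereas the liver mesenchyme and erythroid lists separate the groups.

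Lists of liver cells and of other organs did not share the heart muscle pattern of 2 high arrays. Labelled knockout replicate 3 and control replicate 2 were the 2 highest arrays for 0 genes of these lists. Control replicate 2 was highest for 0 of 14 hepatoblast genes, 0 of 12 liver mesenchyme genes, 1 of 10 erythroid genes, 1 of 8 lung bud genes, 2 of 9 genes of stomach, gut and pancreas and 0 of 7 neural genes, against 23 of 34 heart muscle genes. Labelled knockout replicate 3 was nonetheless highest for 6 of 14 hepatoblast and 4 of 12 liver mesenchyme genes, against 15.5% of all genes. It was highest for 0 erythroid, 1 lung bud, 1 stomach, gut and pancreas and 0 neural genes. The liver lists differed by group where they passed: 5 of 12 mesenchyme genes rose, such as Rgs5 (1.69, adjusted p = 0.00740) and Hand2 (0.71, adjusted p = 0.0160), and 6 of 10 erythroid genes fell, such as Tal1 (-0.98, adjusted p = 0.00740) and Nfe2 (-0.89, adjusted p = 0.0106). Without control replicate 2 these counts were 1 of 12, Rgs5 being the one, and 3 of 10, Tal1 and Nfe2 among them. No hepatoblast gene passed (Krt18 0.50, adjusted p = 0.0756; Hnf4a 0.36, adjusted p = 0.136), nor did a lung bud gene (Irx2 0.25, adjusted p = 0.175; Etv5 0.23, adjusted p = 0.204). The hepatoblast list averaged 10.69, 10.40 and 10.73 in livers labelled knockout, against 10.42, 10.39 and 10.42 in control livers, and was lowest in control replicate 2. The part of this in the heart muscle values was not tested.

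Outside all lists, the 12 genes furthest above their 6-array median in control replicate 2 included other striated muscle genes. Casq1, the calsequestrin of fast skeletal muscle, read 3.64, 4.11 and 4.26 in livers labelled knockout, against 4.01, 5.84 and 3.64 in control livers. Slc8a1, the cardiac sodium-calcium exchanger, read 4.42, 4.47 and 5.63 in livers labelled knockout, against 5.09, 6.01 and 4.04 in control livers. Sh3bgr, expressed in heart and skeletal muscle, read 3.74, 4.11 and 5.28 in livers labelled knockout, against 4.09, 5.31 and 3.65 in control livers, and Trim55, a sarcomere ubiquitin ligase, peaked at 5.34 in control replicate 2. Slc8a1 and Sh3bgr thus had the same 2 high arrays as the sarcomere genes. The other 8 were H2az1, Olfr59, Gabrp, Gpr52, Mir3097, Mir1970, Ugt1a7c and Vmn1r175, of which H2az1 and Gabrp were higher still in control replicate 1. These 12 were taken from the top of a ranking and are a description with no test.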

How the data were processed

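Total RNA of whole fetal livers was hybridised to 6 Affymetrix arrays, 3 labelled knockout and 3 control, per the labels. The deposited values are log2 expression values that the authors made with RMA, per the submitters' processing notes; no version, chip definition or setting is stated in those notes or the labels. Sorted values were identical in all 6 arrays. Of 24479 features, 23281 were named through the platform annotation, 23156 of them through the RefSeq table for GRCm38.p6, while 1198 stayed unnamed here. Where a pair of features shared a name, in 2 cases, the brighter was kept, which left 23279 genes. The number of value columns with no sample was 0.

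The group difference, labelled knockout minus control, was fitted in limma 3.58.1 (R 4.3.3; lmFit, then eBayes without trend or robust option). No covariate was used. P-values were adjusted by Benjamini and Hochberg's method over all 23279 genes, and 0.05 was the threshold. Residual degrees of freedom were 4, and the prior added 4.06. SEs and 95% intervals are those of the moderated fit. With 3 arrays a group, the smallest two-sided p of an exact permutation test is 0.1, so none was run. The fit was tested on simulated data. Tables and figures used Python 3.11.15, pandas 2.3.3, numpy 2.4.6 and matplotlib 3.10.9. The number of arrays sets the precision.

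The 34 genes and the 12 further lists were chosen with earlier results of these data known. Values in every array are given for the 12 genes of the set with the largest range, for Ttn, Myh6, Myh7, Tnnt2, Actc1, Nppa and Nkx2-5, and for others where a contrast turned on them, which were added after seeing values. Of the further heart muscle list the 6 with the largest range and those past the test are named, and of each other list the 2 with the smallest p. Outside all lists the 12 with the largest excess in control replicate 2 are named, the array with the highest median excess. Alternatives were a variance trend, robust eBayes, array weights, leaving out the dimmest 50% of genes, median centring, a new quantile normalisation, a replicate block, a sex term, leaving out each array, and control replicate 2 as the only control.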

Additional observations from a re-analysis of the deposited data

How the results depend on the processing

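Under 15 alternatives, 1 of them added after seeing the data, 0 of the 34 heart muscle genes passed limma's test, with a smallest adjusted p of 0.0851 in any of them, and 10 of 34 kept their sign in every alternative that tested them. The dimmest 50% filter kept 15 of the 34. Median centring and the new quantile normalisation could change little, because the arrays already had the same distribution of values. The median log2 fold change over the 34 genes, -0.20 with all arrays, was -0.42 to 0.08 when single arrays were left out, the highest value being that without control replicate 2, and -0.76 with a sex term or with control replicate 2 as the only control, for which no calls were made. The further heart muscle list, at -0.00, gave -0.08 to 0.08 without single arrays and -0.17 with a sex term or control replicate 2 alone. Its counts of 2 higher and 1 lower became 1 to 3 and 0 to 1 without single arrays, 1 and 0 with the replicate block, 0 and 0 with a sex term or without labelled knockout replicate 3 and control replicate 2 together, and 2 lower with array weights or the dimmest 50% of genes left out. Over all genes, 836 higher and 644 lower became 25 to 785 and 16 to 610 without single arrays, lowest without control replicate 3, 405 and 281 with the replicate block, 3 and 0 with a sex term, and 7 and 10 without both arrays named above. Leaving out arrays also lowers the residual degrees of freedom. Same-numbered arrays share only a number: their deviations from the group means correlated at -0.05, -0.01 and -0.08 over genes. No measure of signal over background was used, so dim features such as Sln or Nppb could not be told from background.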

Other observations

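Labelled knockout replicate 2, which was low for heart muscle genes, stood apart for some genes of several further lists. It was highest for 6 of 7 neural genes and 5 of 8 genes of the second heart field and sinus venosus. It was also highest for 3 of 9 genes of stomach, gut and pancreas and 3 of 8 lung bud genes, against 23.4% of all genes. In these lists, in this order, it was lowest for 0, 2, 2 and 1 genes, against 22.9% of all genes. At least 2-fold above the 6-array median were 2, 3, 2 and 2 genes, against 0.782%. The median excess over the 6-array median was 0.62, 0.45, 0.04 and 0.04. The weight of this array, 0.53, was the lowest of the 6 arrays. Barx1, a stomach mesenchyme factor, read 7.95, 10.70 and 8.41 in livers labelled knockout, against 7.80, 7.85 and 7.52 in control livers (log2 fold change 1.29, SE 0.61, limma adjusted p = 0.259). Foxf1, a factor of visceral mesenchyme, read 9.51, 10.86 and 9.75 in livers labelled knockout, against 9.24, 9.11 and 9.02 in control livers (0.92, SE 0.31, adjusted p = 0.124). The following 4 genes of the further lists were picked out after their values were seen. In labelled knockout replicate 2 Osr1 read 11.63, Isl1 9.83, Shh 6.56 and Sox2 6.02, and each exceeded its value in the other 5 arrays, where the highest were 9.02, 7.92, 5.01 and 4.04. The neural genes Dcx, which rose (0.83, SE 0.18, adjusted p = 0.0357, but 0.0893 without control replicate 2), and Elavl4 (0.51, adjusted p = 0.351) were also highest in this array, at 6.05 and 5.09. It was the array with the most genes at least 2-fold above their 6-array median, 182, and none of them was 1 of the 34 heart muscle genes.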
